A study of Mus musculus with 17 samples.

Results

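C2C12 is a mouse myoblast line that forms skeletal muscle fibres in culture. The 6 libraries described here came from 2 C2C12 lines, SRF-ICA1L and SRF, with 3 libraries each, out of 17 libraries in the study. They were chosen by their titles, and every measured gene was compared between SRF-ICA1L replicates 1 to 3 and SRF replicates 1 to 3 with the replicate number as a block. The SRF line expressed serum response factor (SRF), and the SRF-ICA1L line expressed a fusion of SRF with ICA1L. The other lines carried the empty pMSCV retroviral vector or SRF joined to FOXO1, PDGFRB or RELA. All cells were grown in DMEM with 10% fetal bovine serum, and polyadenylated RNA was sequenced with a strand-specific kit. The labels used here do not say which part of each partner was joined, nor whether a line was 1 clone. Nothing in the labels says that replicates were separate cultures. The p-values measure the spread that the block leaves among the 12 fitted libraries, pMSCV and SRF-RELA included. That spread may be technical.

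SRF is a MADS-box transcription factor that binds a DNA element called the CArG box. It works with 2 kinds of cofactor: ternary complex factors, which act on immediate-early growth genes such as the EGR and FOS families, and myocardin-related factors, which act on cytoskeletal and muscle genes. ICA1L belongs to a family of BAR-domain proteins that bind membranes and is not a DNA-binding protein. In myoblasts, SRF is known for its part in the expression of actins and other contractile genes.

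In the SRF-ICA1L line 8 genes rose and 6 fell against the SRF line, using the quasi-likelihood test of edgeR and a Benjamini-Hochberg adjusted p under 0.05 over 15062 genes. The 14 genes are 0.0929% of those tested (0.0531% higher and 0.0398% lower), and all 14 changed at least 2-fold. Egr4, an EGR-family zinc-finger transcription factor, rose most. Srf itself fell most, and with it fell Lbx1, a homeobox factor of migrating muscle precursors, and Grb14, an adaptor that restrains insulin receptor signalling. The 8 that rose also included Irx3, a homeobox transcription factor, Abcb1a, a drug efflux pump, and Ltbp2, an extracellular matrix protein. The call count depended on the fit: the same 12 libraries gave 0 calls without the replicate block, and leaving out any 1 library of either line gave between 0 and 3. With SRF replicate 2, which stands apart from the other libraries of its number, left out, 3 genes were called (Glrp1, Grb14 and Srf).

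**Figure D1:**
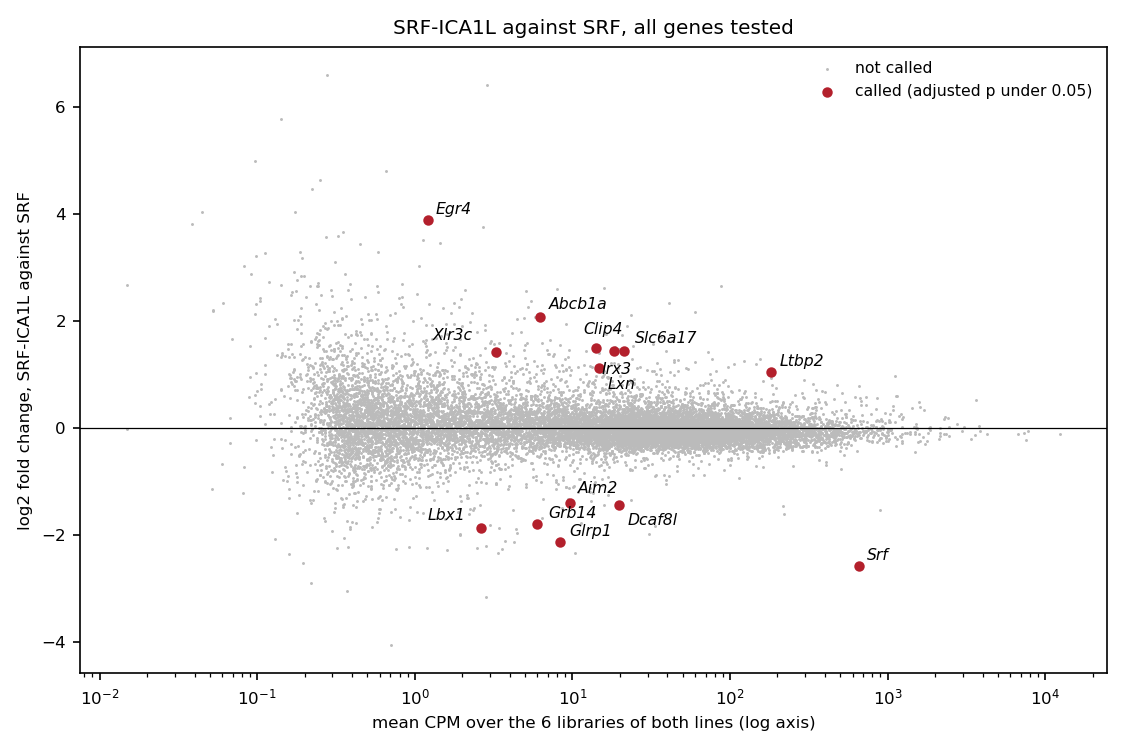
Each point is 1 of the 15062 genes tested: its log2 fold change in SRF-ICA1L against SRF on the vertical axis and its mean CPM (counts per 1000000 counts of the TMM-scaled library) over the 6 libraries on a logarithmic horizontal axis. Red points are the 14 called genes. Egr4 stands highest at 3.89 and Srf lowest at -2.57 among them, while many grey points with wider spread lie at low CPM.

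Total counts ran from 22173139 to 23543734 in the SRF libraries and from 21698573 to 22044046 in the SRF-ICA1L libraries. Mitochondrial genes held 0.0688% to 0.175% and 0.0716% to 0.155% of counts, and the 10 most abundant genes 5.98% to 6.44% and 5.93% to 6.03%. Every pair of libraries within a line differed by far more than sampling noise, with a chi-square of 29.8 to 96.9 for each degree of freedom. On the first principal component of the 12 fitted libraries, SRF replicate 2 lay at 4.76, whereas replicate 2 of SRF-ICA1L, pMSCV and SRF-RELA lay at 59.2, 62.1 and 76.9. The myoblast markers (Myod1, Myf5, Des, Cdh15, Chrna1, Ncam1, Itga7 and Vcam1) were all measured, and their summed level was 990 to 1686 CPM in SRF and 650 to 1470 CPM in SRF-ICA1L. Of these 8 genes 0 were higher and 3 lower (Cdh15, Myod1 and Des) at an unadjusted p under 0.05, against 5.86% and 3.21% of all genes. Each of the 3 was lower in all 3 pairs, but they were picked by p-values from these same pairs. Of all genes, 35.1% had the same direction in 3 pairs. The median log2 fold change of the 8 markers was -0.27, none was called, and their part in the differences between the lines was not tested.

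Expression of the introduced factor came first. The gene Srf (chr17:46548329-46556175, minus strand, GRCm38) stood at 1660.2, 674 and 1019 CPM in SRF replicates 1 to 3 and at 277, 175 and 120.4 CPM in SRF-ICA1L. The ranges did not overlap, and every SRF library was above every SRF-ICA1L library. Srf fell by 2.57 in log2 units, to a level 5.94-fold lower (SE 0.32, Benjamini-Hochberg adjusted p 0.0209 in the quasi-likelihood test of edgeR). For comparison Srf was 66.2, 93.4 and 82.3 CPM in the pMSCV libraries and 154, 135 and 84.5 CPM in the SRF-RELA libraries. How reads from an introduced construct count towards the mouse gene is not given in the sources used here, so these values do not separate introduced from endogenous Srf, and the lines' expression is described only as counted. Srf was called in SRF against pMSCV (log2 fold change 3.70) and not in SRF-ICA1L against pMSCV (1.13, adjusted p 0.0827 in the same fit).

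The Srf promoter window held 2 CArG boxes 82 and 62 bases before its start (chr17:46556215-46556244, minus strand, GRCm38.p6, from RefSeq), shown because it is the only window among the called genes with a CArG box. Egr2 had 5 windows for different starts, of which 4 held a CArG box. The site printed, in 3 of these windows, lies 72 bases before the start of one of them (chr10:67537787-67537816, plus strand). It is shown because Egr2, which was not called, is an EGR family gene with a CArG box in its windows. The capitals mark CArG boxes, read 5′ to 3′.
Srf site: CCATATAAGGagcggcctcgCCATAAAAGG
Egr2 site: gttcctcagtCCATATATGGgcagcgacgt
The motif searched was the CArG box on both strands, in windows from 250 bases before to 50 after each start. Of the 14 called genes 12 had a window, and 1 of these held a CArG box, against 1.66% of the 10631 tested genes with a window. An EGR site (GCGNGGGCG, either strand) was in windows of 2 of these 12 genes, Srf and Grb14, against 12.09% of tested genes with a window. A match is a description of letters and does not show binding. Of all windows, 48.7% matched a GENCODE transcript start at their own start. The windows of Srf, Grb14, Lxn, Abcb1a and Irx3 did not, and that of Abcb1a (chr5:8566841-8567140) lies outside the gene position given below. Egr4 had a window with neither motif.

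Ica1l, the mouse gene of the fusion partner (chr1:59982490-60043184, minus strand), was not called. Its counts were 3, 11 and 10 in the SRF libraries and 6, 21 and 10 in SRF-ICA1L, with a log2 fold change of 0.62 (SE 0.50, adjusted p 0.734 by edgeR's quasi-likelihood test). The ranges overlapped, and the gene lies on the opposite strand to Fam117b, whose exons overlap it. Whether counting used the strand is not given in the sources used here.

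Among transcription factors, Egr4 (chr6:85511121-85513589, minus strand) had counts of 4, 6 and 0 in SRF and 55, 92 and 2 in SRF-ICA1L. These are 0.18, 0.273 and 0 CPM against 2.63, 4.07 and 0.0911 CPM. Its replicates 1 and 2 were higher in SRF-ICA1L, and replicate 3 rests on 2 counts against 0, so the ranges overlap and no fold is given for that pair. Egr4 rose by 3.89 in log2 units (SE 0.46, adjusted p 0.0209), and the SRF-RELA libraries had counts of 80, 169 and 1.

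Irx3 (chr8:91798525-91802067, minus strand) was 9.47, 10.4 and 9.72 CPM in SRF and 32.6, 23.8 and 24.9 CPM in SRF-ICA1L. The ranges were far apart, with the SRF libraries close together. It rose by 1.45 (SE 0.18, adjusted p 0.0209 with edgeR); exons of Irx3os lie on the opposite strand.

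Lbx1 (chr19:45232684-45235812, minus strand) was 8.84, 3.13 and 0.645 CPM in SRF and 2.20, 0.752 and 0.273 CPM in SRF-ICA1L. Each SRF-ICA1L library was lower than the SRF library of its number, but the ranges overlapped because the replicate numbers differed so widely. Lbx1 fell by 1.86 in log2 units (SE 0.23, adjusted p 0.0209).

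Of the genes of signalling and the cell surface, Grb14 (chr2:64912476-65024987, minus strand) was 9.29, 5.68 and 13.1 CPM in SRF and 2.53, 1.99 and 3.37 CPM in SRF-ICA1L. The ranges did not overlap, and Grb14 fell by 1.79 (SE 0.20, adjusted p 0.0209 by edgeR's quasi-likelihood test). Aim2 (chr1:173350879-173466040, plus strand), a sensor of DNA in the cytosol, was 20.3, 10.5 and 9.89 CPM in SRF and 10.7, 2.92 and 3.51 CPM in SRF-ICA1L. The highest SRF-ICA1L library, replicate 1, was above the lower SRF libraries, so the ranges overlapped, and Aim2 fell by 1.4 (SE 0.20, adjusted p 0.0414).

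Abcb1a (chr5:8660077-8748575, plus strand), which exports drugs and other small molecules, was 1.04, 4.91 and 1.38 CPM in SRF and 4.54, 19.0 and 6.6 CPM in SRF-ICA1L. Replicate 2 was the highest library in both lines, and the ranges overlapped. Abcb1a rose by 2.07 (SE 0.30, adjusted p 0.0414 by edgeR's quasi-likelihood test), and exons of Gm42686 lie on the opposite strand. Slc6a17 (chr3:107467543-107518018, minus strand), a transporter of neutral amino acids into synaptic vesicles, was 12.2, 20.8 and 3.01 CPM in SRF and 30.2, 50.7 and 11.2 CPM in SRF-ICA1L. The ranges overlapped, since replicate 3 was low in both lines, and Slc6a17 rose by 1.45 (SE 0.21, adjusted p 0.0414).

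In the matrix and cytoskeleton, Ltbp2 (chr12:84783212-84876532, minus strand) was 76.4, 142 and 144 CPM in SRF and 178, 276 and 275 CPM in SRF-ICA1L. Every SRF-ICA1L library was above every SRF library, and Ltbp2 rose by 1.05 (SE 0.15, adjusted p 0.0455 by edgeR's quasi-likelihood test). Exons of D030025P21Rik lie on the opposite strand. Clip4 (chr17:71768473-71864273, plus strand), of a family of proteins with microtubule-binding CAP-Gly domains, was 6.49, 10.7 and 5.24 CPM in SRF and 17.3, 26.1 and 18.4 CPM in SRF-ICA1L. The ranges did not overlap, and Clip4 rose by 1.49 (SE 0.19, adjusted p 0.0209).

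The other called genes were Glrp1, Dcaf8l, Xlr3c and Lxn. Glrp1 (chr1:88499871-88510066, minus strand) was 27.5, 7.0 and 6.06 CPM in SRF and 6.83, 1.02 and 1.91 CPM in SRF-ICA1L, and fell by 2.13 (SE 0.21, adjusted p 0.0104 by edgeR's quasi-likelihood test). Dcaf8l (chrX:89403848-89409689, minus strand) was 48.1, 21.1 and 13.8 CPM in SRF and 25.2, 4.95 and 5.55 CPM in SRF-ICA1L, and fell by 1.42 (SE 0.21, adjusted p 0.0455). In both genes replicate 1 was the highest library of each line, and the ranges overlapped. Xlr3c (chrX:73254540-73265390, minus strand), which has near-identical copies so that its counts are uncertain, was 1.62, 2.54 and 1.07 CPM in SRF and 3.20, 7.65 and 3.41 CPM in SRF-ICA1L. The ranges did not overlap, and Xlr3c rose by 1.42 (SE 0.21, adjusted p 0.0455). Lxn (chr3:67457998-67463926, minus strand), latexin, an inhibitor of carboxypeptidases, was 5.46, 13.2 and 7.39 CPM in SRF and 11.2, 38.2 and 13.3 CPM in SRF-ICA1L, and rose by 1.13 (SE 0.17, adjusted p 0.0455). Its ranges overlapped, and exons of Gfm1 lie on the opposite strand.

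**Figure D2:**
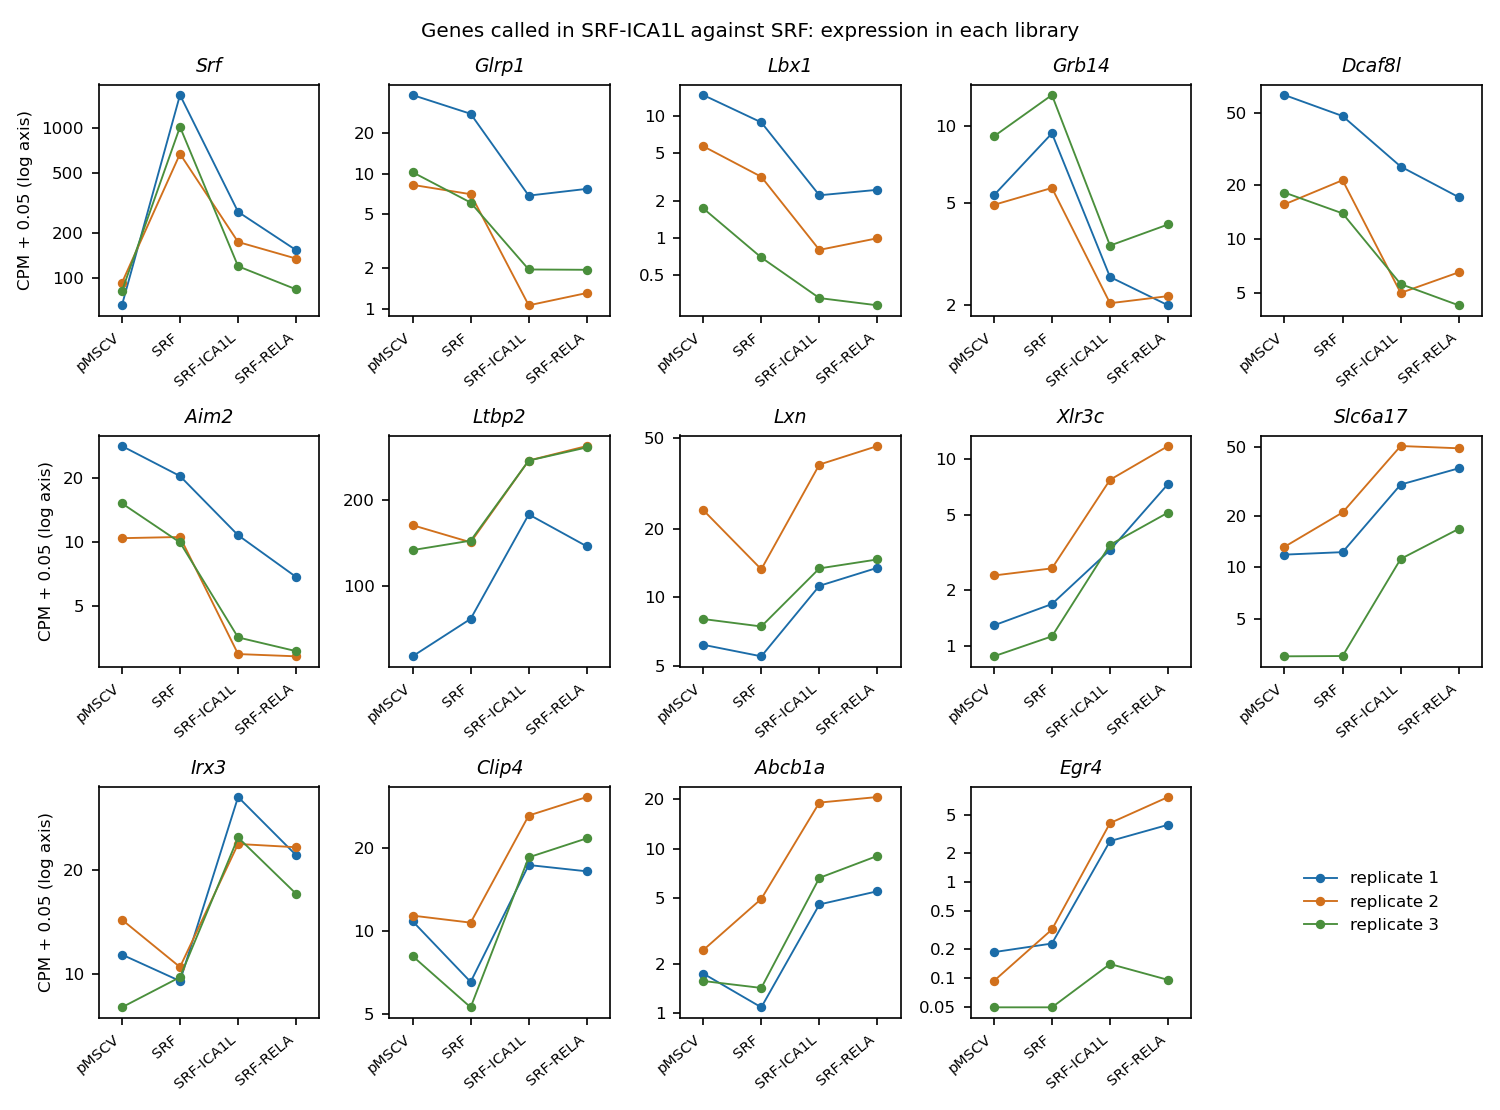
Each panel is 1 of the 14 called genes, with CPM plus 0.05 on a logarithmic vertical axis for the libraries of SRF, SRF-ICA1L, SRF-RELA and pMSCV. Lines join libraries with the same replicate number. Srf is highest in the 3 SRF libraries, and Egr4 replicate 3 is at or near 0 in all 4 lines.

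In all, 14 of 14 called genes changed in the same direction in each of the 3 same-numbered pairs, against 35.1% of all genes, and 6 of 14 had ranges that did not overlap, against 7.61% of all genes. The calls were made on these same pairs, so these shares are a description. An unadjusted p under 0.05 was reached by 1367 genes (9.08%), 883 higher and 484 lower. The median log2 fold change over all genes was -0.0027.

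The genes just beyond the threshold were also mostly higher. Sulf2, an enzyme that trims heparan sulfate, was 1.71, 15.8 and 8.68 CPM in SRF and 4.16, 62.4 and 30.3 CPM in SRF-ICA1L, with a log2 fold change of 1.74 (SE 0.27, adjusted p 0.0537 by edgeR's quasi-likelihood test). Ggt7, Cx3cl1, Zmat1, Ptk7, Abcg1, Cemip2, Bdkrb1 and Pdzrn3 had log2 fold changes from 0.65 to 2.27 and adjusted p from 0.0600 to 0.0739. Cx3cl1, a chemokine, was 19.4, 33.8 and 25.1 CPM in SRF and 41.0, 90.6 and 39.3 CPM in SRF-ICA1L. Fgl2 was the only one of these 10 with a lower value, at -1.57 (adjusted p 0.0739). None of the 10 passed the test.

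SRF-RELA was compared with SRF-ICA1L in the same fit, picked as the most similar other fusion line with earlier results known. The choice was made on these data, so a low number of calls is no independent result. SRF-ICA1L against SRF-RELA gave 0 called genes with edgeR's quasi-likelihood test, with 280 genes at an unadjusted p under 0.05 (1.86%), and DESeq2 also gave 0. Of the 14 genes called against SRF, Xlr3c was lower in SRF-ICA1L than in SRF-RELA by a log2 fold change of -0.77 (SE 0.20, unadjusted p 0.00275) and Irx3 was higher by 0.39 (SE 0.18, unadjusted p 0.0495); neither passed adjustment. A p that misses the threshold does not show that the lines are alike. For Egr4 the difference was -0.65 (SE 0.34) and for Srf 0.58 (SE 0.30).

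The comparisons with pMSCV and with SRF-RELA share libraries with the main one, so the values are given side by side and no overlap is read from them. Egr4 had a log2 fold change of 5.12 in SRF-ICA1L against pMSCV, 1.23 in SRF against pMSCV and 4.54 in SRF-RELA against SRF. Glrp1 had -2.59, -0.47 and -1.98 in the same order, and Lbx1 had -2.80, -0.94 and -1.71. Grb14 had -1.26, 0.53 and -1.78, and Clip4 had 1.01, -0.48 and 1.63. In the comparison of SRF with pMSCV these genes were nearer to 0 than in the others, whereas Srf had its highest value there, with 1.13, 3.70 and -3.15. Over the whole table, 423 genes (2.81%) were called in SRF-ICA1L against pMSCV, 2 (0.0133%) in SRF against pMSCV and 99 (0.657%) in SRF-RELA against SRF.

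**Figure D3:**
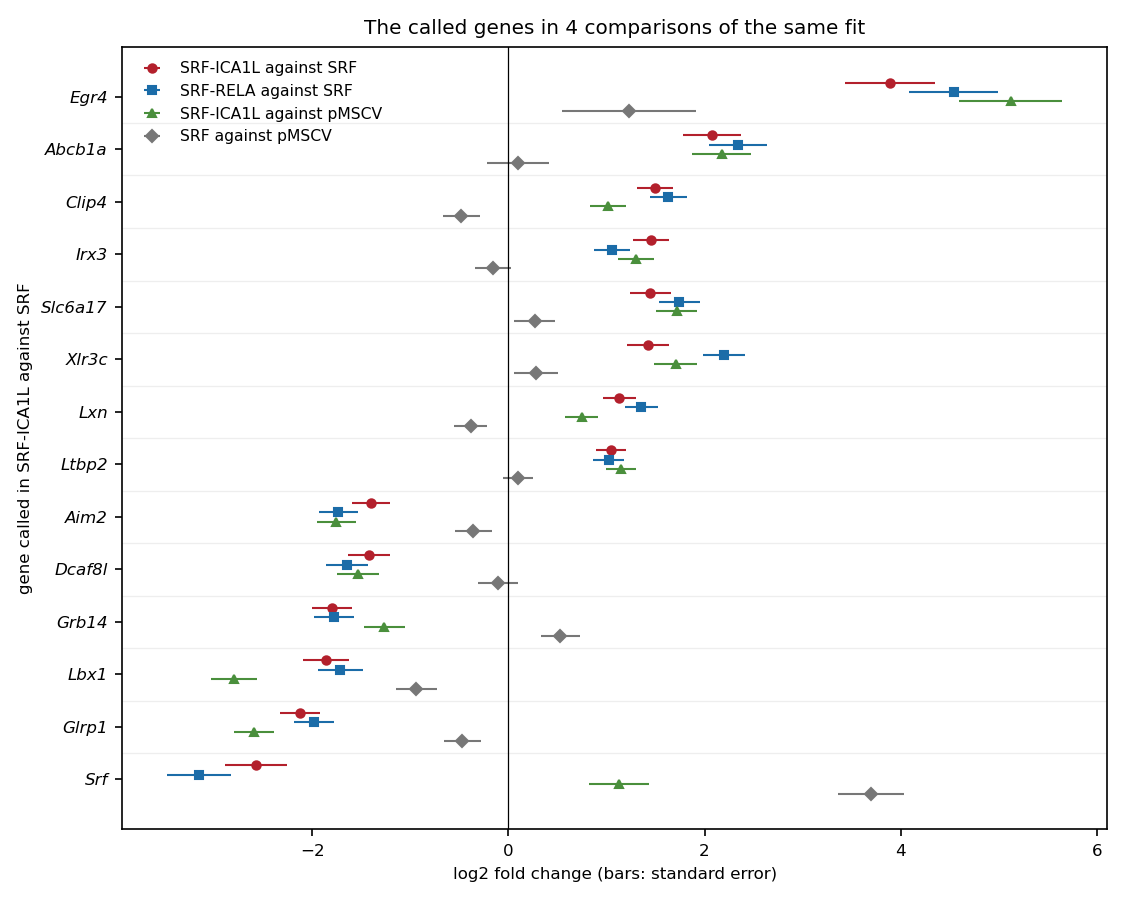
Points are log2 fold changes of the 14 called genes in 4 comparisons of 1 fit, and bars are standard errors. Egr4 has the highest values, up to 5.12 in SRF-ICA1L against pMSCV, and Srf is at -2.57 against SRF and at 1.13 against pMSCV. The comparisons share libraries.

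Immediate-early SRF targets were measured for all 14 members, and 4 had an unadjusted p under 0.05 with a higher value, against 5.86% of all genes; none was called by edgeR's quasi-likelihood test. The list median was 0.16, with 8 of 14 above 0, and ran from 0.11 without SRF replicate 2 to 0.38 without replicate 1 of all 4 groups. Egr2 was 24.0, 76.7 and 11.6 CPM in SRF and 74.8, 219.7 and 25.6 CPM in SRF-ICA1L (log2 fold change 1.43, SE 0.36, adjusted p 0.247). Egr3 was 28.3, 86.0 and 24.9 CPM in SRF and 62.1, 208.0 and 41.2 CPM in SRF-ICA1L (1.02, SE 0.30, adjusted p 0.306). In both the SRF-ICA1L library was higher in each of the 3 pairs while the ranges overlapped, and replicate 3 was the lowest library of each line.

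Egr1 and Junb, chosen for display after their values were seen, followed the same order of replicates. Egr1 was 973, 1566 and 125 CPM in SRF and 1185, 2692 and 213 CPM in SRF-ICA1L (0.61, adjusted p 0.425). Junb was 544, 916 and 130 CPM in SRF and 556, 1731 and 205 CPM in SRF-ICA1L (0.51, adjusted p 0.483). Replicate 3 had the lowest level of the EGR genes and of Junb in both lines, and whether this order of replicates has a part in the differences between the lines was not tested.

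**Figure D4:**
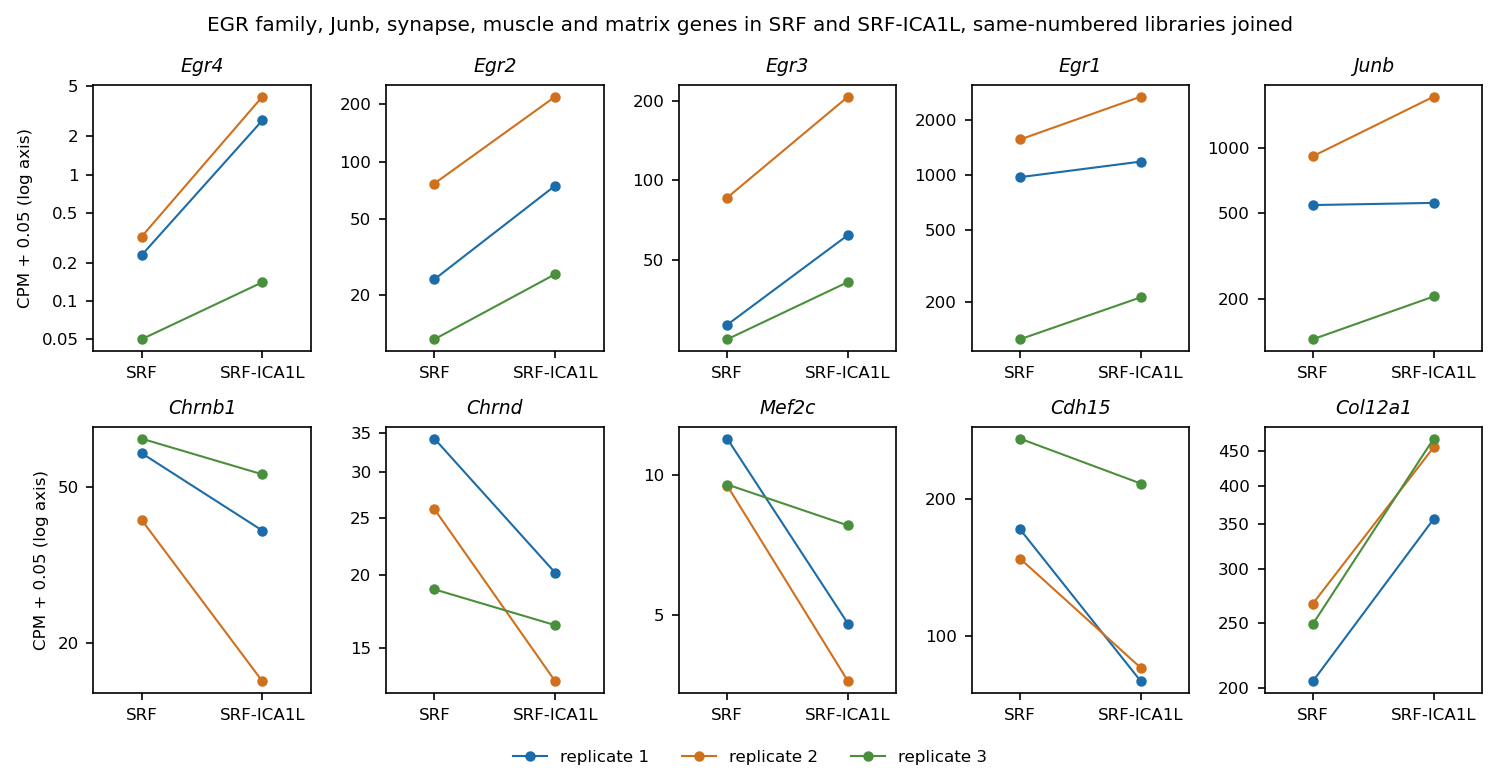
CPM plus 0.05 on a logarithmic axis in the SRF and SRF-ICA1L libraries, with same-numbered libraries joined. In every pair the SRF-ICA1L library is higher for the EGR genes, Junb and Col12a1 and lower for Chrnb1, Chrnd, Mef2c and Cdh15. Egr4 was the only called gene among them, and Chrnd was chosen for display after its values were seen. The displayed genes come from lists with members in both directions. Lrp4, a synapse gene that was higher in all 3 pairs, is not displayed. Over all genes, 35.1% had the same direction in 3 pairs.

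Cytoskeletal SRF targets, which encode actin-binding and adhesion proteins, were all measured (26 of 26). Of them 4 had an unadjusted p under 0.05 with a higher value and 1 with a lower one, against 5.86% and 3.21% of all genes. None was called, and the median was 0.13. Lima1, an actin cross-linker, was 263.0, 528 and 349 CPM in SRF and 425, 1042 and 450 CPM in SRF-ICA1L (0.66, adjusted p 0.292), and Pdlim5 had 0.51 (adjusted p 0.292). The list median ran from -0.06 to 0.23 when libraries were left out, and was below 0 without SRF replicate 1, without SRF-ICA1L replicate 1 or without replicate 1 of all 4 groups. Of the 5 measured SRF cofactors, Mrtfb was higher by 0.28 (adjusted p 0.505), 2 of 5 were above 0, and the median of -0.01 turned above 0 without SRF replicate 2 or without SRF-ICA1L replicate 3 (range -0.13 to 0.11).

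Smooth muscle contractile genes had a median of 0.74 over 14 measured members, with 12 above 0. At an unadjusted p under 0.05, 1 was higher and 1 lower, against 5.86% and 3.21% of all genes. Tagln, a calponin-family actin-binding protein, was 0.812, 1.14 and 1.89 CPM in SRF and 3.87, 2.43 and 2.28 CPM in SRF-ICA1L (1.16, adjusted p 0.459), with ranges that did not overlap. Des, the muscle intermediate filament, was 282, 322 and 616 CPM in SRF and 174, 287 and 452 CPM in SRF-ICA1L (-0.45, adjusted p 0.547). Neither was called, and the median ran from 0.20 without replicate 1 of all 4 groups to 1.46 without SRF replicate 3.

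Genes of muscle identity gave mixed values. Of 13 measured regulatory and fusion genes, 2 were higher and 3 lower at an unadjusted p under 0.05, against 5.86% and 3.21% of all genes, with a median of -0.04 and none called. Cdh15, a cadherin of myoblasts, was 171, 148 and 272 CPM in SRF and 79.3, 84.8 and 216 CPM in SRF-ICA1L (-0.73, adjusted p 0.292). Mef2c, a MADS-box muscle factor, was 11.9, 9.45 and 9.50 CPM in SRF and 4.73, 3.54 and 7.74 CPM in SRF-ICA1L (-1.0, adjusted p 0.302), lower in every pair. Of 20 measured sarcomere genes none reached an unadjusted p under 0.05, with Ttn, the giant spring protein, at -0.88 (adjusted p 0.704) and a median of -0.04. When libraries were left out, the sarcomere median ran from -0.57 without SRF-ICA1L replicate 3 to 0.23 without replicate 1 of all 4 groups, and it was above 0 without SRF replicate 1 or 3 or SRF-ICA1L replicate 1 or 2. The median of the regulatory and fusion genes ran from -0.31 without SRF-ICA1L replicate 3 to 0.06 without SRF-ICA1L replicate 2, and was also above 0 without SRF replicate 1 or 3.

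Acetylcholine receptor and synapse genes had a median of -0.23 over 11 measured members, with 2 higher and 3 lower at an unadjusted p under 0.05, against 5.86% and 3.21% of all genes. The median ran from -0.36 without SRF-ICA1L replicate 3 to -0.12 without SRF-ICA1L replicate 1. Lrp4, the agrin receptor, was 14.2, 33.7 and 36.7 CPM in SRF and 21.5, 47.8 and 56.6 CPM in SRF-ICA1L (0.58, adjusted p 0.141). Chrnb1, the receptor's beta subunit, was 60.9, 41.1 and 66.3 CPM in SRF and 38.6, 15.9 and 53.7 CPM in SRF-ICA1L (-0.79, adjusted p 0.263). The ranges of both overlapped, and neither was called.

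Collagen and matrix genes had 20 of 22 measured members above 0, a median of 0.55 (0.36 to 0.70 when libraries were left out) and 5 with an unadjusted p under 0.05, all higher, against 5.86% of all genes. Col12a1, a fibril-associated collagen, was 204, 267 and 249 CPM in SRF and 357, 456 and 469.8 CPM in SRF-ICA1L (0.83, SE 0.17, adjusted p 0.134 by edgeR's quasi-likelihood test). Lox, a collagen cross-linking enzyme, was 639.6, 514 and 600.1 CPM in SRF and 1027, 737 and 864 CPM in SRF-ICA1L (0.58, adjusted p 0.311). The ranges of these 2 did not overlap, yet neither passed the test. Ltbp2, called above, was the only member of the TGF-beta and BMP list to pass, where the median was 0.21 over 13 measured genes (0.01 to 0.33 when libraries were left out, lowest without replicate 1 of all 4 groups).

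The markers of other cell types gave low or overlapping sums. Summed pericyte markers (4 of 7 measured) were 212 to 403 CPM in SRF and 355 to 583 CPM in SRF-ICA1L, and Rgs5, Kcnj8 and Abcc9 were not measured. Macrophage markers were 3.96 to 4.63 and 2.87 to 4.78 CPM (2 of 7 measured), and endothelial markers 0.0454 to 0.496 and 0.265 to 1.19 CPM (2 of 6 measured). Neural markers were 161 to 201 CPM in SRF and 45.7 to 209 CPM in SRF-ICA1L (5 of 7 measured). At an unadjusted p under 0.05 in edgeR's quasi-likelihood test, 2 of the 5 neural markers were lower and 0 higher, with a median log2 fold change of -0.78. Of the 2 macrophage markers 1 was higher, and no pericyte or endothelial marker reached that level. Over all genes 5.86% were higher and 3.21% lower, and none of these markers was called. The markers' part in the differences above was not tested.

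**Figure D5:**
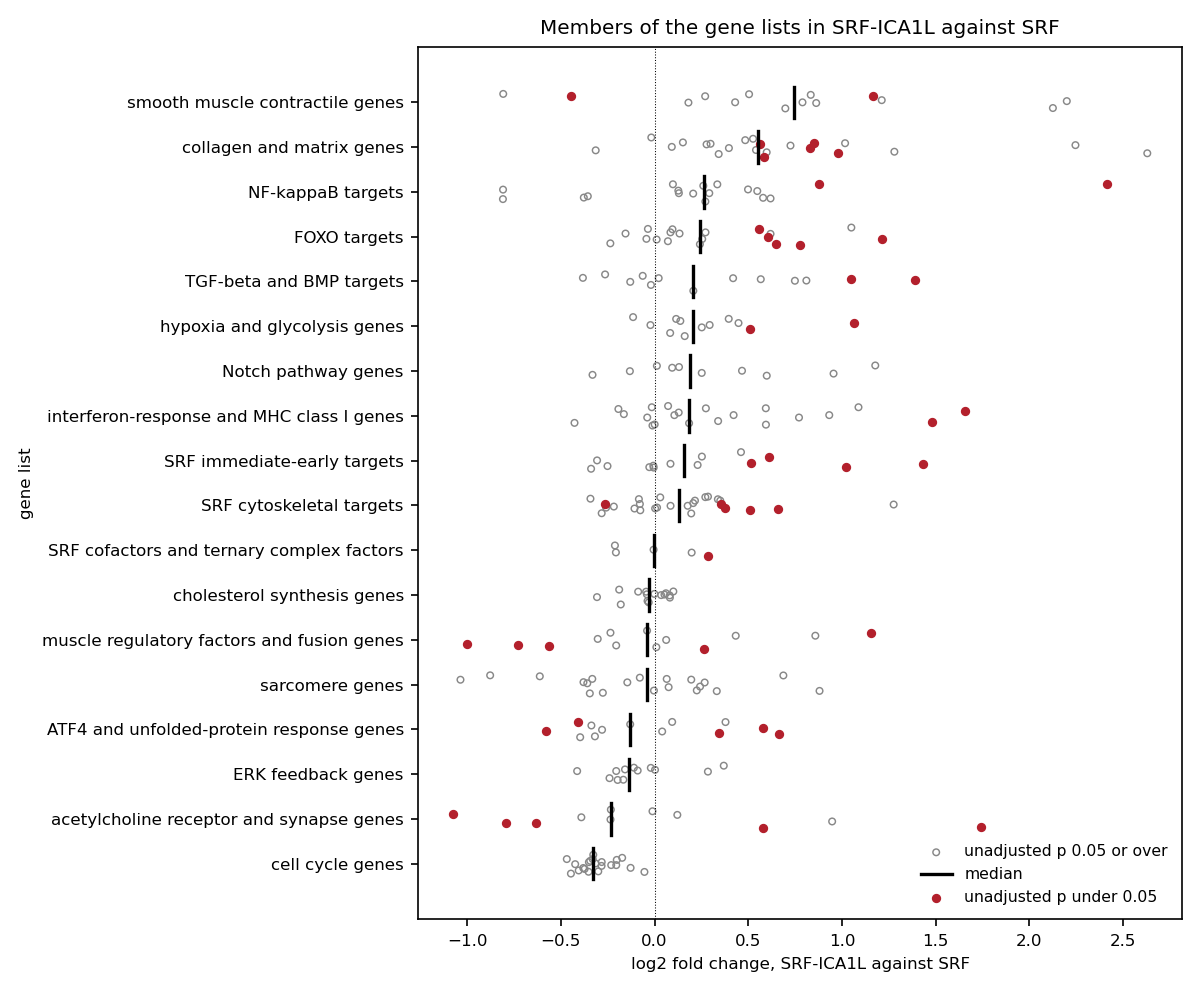
Circles are the log2 fold changes of the measured members of 18 gene lists in SRF-ICA1L against SRF, filled where the unadjusted p was under 0.05, and the black bar is the list's median. Smooth muscle and matrix lists have the highest medians (0.74 and 0.55) and the cell cycle list the lowest (-0.33).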

How the data were processed

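Gene counts were measured in 17 libraries, 6 of them from the 2 lines compared. The authors deposited raw counts per gene, 1 table of 15062 genes, in which every gene reached 10 counts in at least 3 libraries. FastQC 0.11.8, Trimmomatic 0.39, HISAT2, featureCounts, Subread 2.0.0 and GRCm38 are named in the submitters' processing notes, with no roles. Of 1531 genes without a symbol, 1519 received one by identifier, and 15050 gene identifiers matched GENCODE M21, used for positions. No column lacked a sample.

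The 12 libraries of SRF, SRF-ICA1L, SRF-RELA and pMSCV were fitted with edgeR 4.0.16 (R 4.3.3, TMM scaling, robust quasi-likelihood test) with group and replicate number as terms, and p-values were adjusted by Benjamini-Hochberg over all genes. edgeR's low-count filter, judged over all 17 libraries, removed 0 genes. CPM are TMM-scaled, and the biological coefficient of variation was 18.6%. Total counts in the 2 lines ran from 21698573 to 23543734, so sampling error mattered mainly for weak genes. The replicate numbers come from the titles. Same-numbered SRF and SRF-ICA1L libraries had positively correlated deviations from their group means (r 0.506 to 0.678), and differently numbered ones had negative r (-0.449 to -0.0849). Over the 6 pairs of groups the same-numbered r was 0.392 to 0.789, and the numbers were taken to pair the samples. These groups were kept because their same-numbered libraries correlated in an earlier pass over these data, so the r values cannot test the pairing. Deviations from a group mean also sum to 0, so positive same-numbered r values go with negative ones elsewhere.

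Named genes were Srf, Ica1l, every called gene, the 10 with the next smallest p, and the 2 members of each of 26 gene lists with the smallest p. The members, lists, the block and the 12 libraries were chosen with earlier results of these data known. Lists are described by counts and medians, with no set test. The alternatives tried were other library sets, no block, DESeq2 1.42.0, other scaling and filters, non-robust dispersions and leaving out libraries. Promoter windows were taken from RefSeq (GRCm38.p6).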

Additional observations from a re-analysis of the deposited data

How the results depend on the processing

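All 14 called genes kept their direction in each of the 20 alternatives run. They had the same direction in all 3 same-numbered pairs, so this outcome was nearly fixed in advance. The no-filter alternative repeats the main fit, from which no gene was removed. Of 1492 recomputed values of named genes 189 lost a call and 28 gained one. Only values of the 14 called genes could lose a call, and most of those did. The number of calls moved. Without the replicate block, edgeR called 0 genes (0 higher, 0 lower) in the same 12 libraries, with 288 at an unadjusted p under 0.05, and adjusted p for the 14 genes from 0.473 to 1.0. No calls were made without the block in all 17 libraries (0, with 235 unadjusted) or in the 6 libraries alone (0, with 496 unadjusted). With the replicate block in all 17 libraries only Srf was called (1 gene, 0 higher, 1 lower), and with the block in the 6 libraries alone 53 genes were called (43 higher, 10 lower), including 9 of the 14. DESeq2 with the block called 185 (125 higher, 60 lower), including all 14. A minimum mean of 1 CPM left 10 calls, 5 of them higher. RLE scaling and edgeR's filter judged on the 12 libraries, an alternative chosen after seeing the data, each gave 13 calls, without Lxn. Leaving out libraries gave 0 to 3 calls in all, 0 to 0 higher and 0 to 3 lower, and between 852 and 1461 genes had an unadjusted p under 0.05. Each library mattered: without SRF replicate 1, or any one of the 3 SRF-ICA1L replicates, 0 genes were called, and without SRF replicate 3 only Glrp1 was. For SRF-ICA1L against SRF-RELA the count ran from 0 to 2 when libraries were left out, the 2 arising without replicate 3 of all 4 groups. Each leave-out also has fewer samples, and causes were not tested. Depth limits Egr4, Ica1l and other genes with few counts.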

Other observations

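Cell cycle genes had 21 of 21 measured members below 0 in SRF-ICA1L against SRF, with a median log2 fold change of -0.33, but none had an unadjusted p under 0.05 and none was called by edgeR's quasi-likelihood test. Aurkb, a mitotic kinase, was 70.7, 78.3 and 99.1 CPM in SRF and 56.2, 44.4 and 89.1 CPM in SRF-ICA1L (-0.47, adjusted p 0.562). Without SRF replicate 2 the median was 0.04. FOXO targets had 5 of 19 measured genes at an unadjusted p under 0.05, all higher, against 5.86% of all genes. Their median was 0.24, and ran from 0.08 without SRF-ICA1L replicate 3 to 0.41 without replicate 1 of all 4 groups. Txnip, a thioredoxin inhibitor, was 6.54, 12.5 and 17.1 CPM in SRF and 34.2, 21.1 and 25.5 CPM in SRF-ICA1L (1.21, adjusted p 0.270), with no overlap. The pMSCV libraries had 31.3 to 45.5 CPM of Txnip, and its log2 fold change in SRF-ICA1L against pMSCV was -0.55. NF-kappaB targets had 2 of 18 higher at that level, against the same 5.86%, and a median of 0.27 (0.04 without replicate 2 of all 4 groups to 0.41 without replicate 1). Il6, a cytokine, was 0.451, 1.59 and 0 CPM in SRF and 3.30, 6.37 and 0.0455 CPM in SRF-ICA1L (2.41, adjusted p 0.134).

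Interferon-response genes had 2 of 21 higher at an unadjusted p under 0.05, hypoxia genes 2 of 12, and ATF4 and unfolded-protein genes 3 of 13 higher and 2 of 13 lower, against 5.86% higher and 3.21% lower over all genes. Their medians were 0.18, 0.21 and -0.13, and that of the interferon-response genes was -0.05 without SRF replicate 2. The hypoxia median ran from 0.08 without replicate 1 of all 4 groups to 0.27 without SRF replicate 2. The ATF4 median ran from -0.33 without SRF-ICA1L replicate 2 to 0.03 without replicate 1 of all 4 groups. Notch, cholesterol and ERK feedback genes had 0 members at that level in either direction, with medians of 0.19, -0.03 and -0.13. The cholesterol median ran from -0.18 without SRF replicate 1 to 0.29 without SRF replicate 2, and the ERK median was -0.02 without SRF replicate 2. Of the cartilage markers, 4 of 7 were measured, 2 with a log2 fold change above 0 and 2 below. Their sum was 121 to 236 CPM in SRF and 116 to 220 CPM in SRF-ICA1L. Col2a1, the member with the smallest p, was 0.721, 3.36 and 1.33 CPM in SRF and 4.01, 12.7 and 4.69 CPM in SRF-ICA1L (2.04, adjusted p 0.223 by edgeR's quasi-likelihood test). Summed adipocyte markers were 82.5 to 133 CPM in SRF and 57.9 to 168 CPM in SRF-ICA1L (4 of 6 measured), and epithelial markers 15.6 to 30.4 and 4.16 to 23.2 CPM (2 of 6 measured). At an unadjusted p under 0.05, 1 of the 4 adipocyte markers was higher (Cebpa, 0.69) and 1 of the 2 epithelial markers was lower (Krt19, -1.44). Neither was called.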
